A study of Mus musculus with 12 samples.

Results

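Hepatocyte-derived chemically induced liver progenitors (hepCLiP) of the mouse were compared between 3D spheroids and 2D monolayers. The comparison uses 6 of the 12 RNA-seq libraries of the series, 3 per culture, chosen by their titles, and all genes that passed a filter on low counts, 14798 of the 53599 in the count table. The other 6 libraries, from bilCLiP cells of biliary origin, served to estimate the spread and to test whether the culture effect depended on origin. The series asks how plastic these cells are between the hepatocyte and the biliary identity.

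The hepCLiP 2D cells grew on collagen-coated plates in small hepatocyte medium (SHM) with 10% fetal bovine serum (FBS). The medium held YAC, a mixture of Y-27632, a kinase inhibitor, A83-01, which blocks TGF-beta receptors, and CHIR99021, which inhibits GSK3 and so activates beta-catenin signalling. For hepCLiP 3D, the 2D cells were aggregated in microwells for 3 days in SHM and YAC without FBS. The spheroids then floated for 6 to 8 days in SHM and YAC with 10 ng/ml of the interleukin 6-type cytokine oncostatin M. All 6 cultures therefore carry the 3 inhibitors, and the effects of geometry, serum, oncostatin M and time, which all changed at once, cannot be told apart. Replicates 1 and 3 of both cultures carry the RosaConfetti reporter and replicate 2 carries RosaYFP. The treatment tags of 4 of the 12 libraries contradict their titles: that of hepCLiP 2D replicate 3 reads 3D, and those of the bilCLiP 3D libraries read 2D. The labels name no animal for any replicate. Replicate 2 carries another reporter than replicates 1 and 3, whereas nothing says whether 1 and 3 came from separate animals or cultures, and the p-values cover the spread between these samples alone, which may in part be technical.

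As background, CLiP cells are dividing, duct-like progenitors that mature hepatocytes give rise to under the 3 inhibitors. Hepatocytes are secretory cells: they release most plasma proteins, clear and conjugate foreign compounds, and stop dividing in the adult liver. In the fetal liver, oncostatin M from blood-forming cells acts through its receptor, JAK kinases and STAT3 to promote hepatocyte maturation. Cells on stiff, flat collagen build actin stress fibres and integrin contacts.

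The 6 hepCLiP libraries held 17138049 to 18762152 counts. Levels are given as CPM, counts per 1000000 of the TMM effective library size, and their log2 values correlated across genes at 0.944 to 0.958 within 2D, 0.9502 to 0.956 within 3D and 0.805 to 0.852 between the cultures. The library tagged 3D but titled 2D, 2D replicate 3, lay with the other 2D libraries. The 10 genes with the most counts took 5.25%, 4.997% and 5.26% of the counts in 2D and 23.2%, 21.1% and 18.3% in 3D (exact two-sided permutation p = 0.1, the smallest that 3 against 3 allows). The calls depended on the scaling: with library totals alone the median of all genes shifted by -0.57 on the log2 scale, and the share of calls that were rises went from 48.6% to 16.3%. Differences below are relative to the TMM scale, on which the median log2 fold change of all genes tested was -0.06.

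Same-numbered cultures deviated together from their group means, at correlations across genes of 0.47, 0.49 and 0.51, against -0.35 to -0.14 for other numbers. Deviations from a group mean cancel within the group, so the negative values follow on average from the positive ones and are no separate evidence. The Y-linked gene Ddx3y showed the same pairs, with 57.3, 0.0454 and 78.4 CPM in 2D and 100.04, 0 and 128 CPM in 3D. Replicate 2 was at or near 0 in both cultures, while replicates 1 and 3 were high in both. Vcp-rs, a copy of the Vcp gene, was the mirror image, with 2.26, 167 and 3.54 CPM in 2D and 1.68, 134 and 2.29 CPM in 3D, high in replicate 2 alone. Neither was called between the cultures (adjusted p = 0.7998 and 0.894). Blocking by replicate number called Ddx3y at an adjusted p of 0.0264 and Vcp-rs at 0.0223.

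The label was checked against markers. All 12 hepatocyte markers were higher in every 3D library than in every 2D library, and 11 of the 12 were called higher at an adjusted p under 0.05, Cyp3a11 being the exception (adjusted p = 0.09202, or 0.00805 with the replicate number as a block). Over all genes tested, 16.9% were called higher and 17.9% lower, and the CPM of the cultures did not overlap for 46.9%. Over the 10 of them that reached 1 CPM in 2D, 2D replicate 2 was the lowest library for 8 and 2D replicate 3 the highest for 8. The 2D cells were thus not free of hepatocyte transcripts, and the amount differed between cultures: the summed level of the 12 markers was 1231, 342 and 1812 CPM in 2D and 53452, 52388 and 45923 CPM in 3D. Of the 12 biliary markers 5 fell and 2, Spp1 and Onecut1, rose, with a median log2 fold change of -1.46; without hepCLiP 2D replicate 3, 3 fell and the median was -0.90. Their summed level was nevertheless higher in 3D, at 3844 to 6651 CPM in 2D and 11402 to 15747 CPM in 3D, and most of it in 3D was Spp1, encoding the secreted matrix protein osteopontin, with 2674, 4164 and 1232 CPM in 2D and 14461, 11092 and 15452 CPM in 3D (log2 fold change 2.35 ± 0.50 SE, adjusted p = 0.00458). Tspan8, a membrane tetraspanin, had 342, 702 and 504 CPM in 2D and 8.05, 77.3 and 57.2 CPM in 3D (log2 fold change -3.44 ± 0.64 SE, adjusted p = 0.00235), so it fell in every pair but stayed measurable. Onecut1, a transcription factor of hepatic progenitors, had 6.47, 3.997 and 6.54 CPM in 2D and 24.7, 13.04 and 14.3 CPM in 3D (log2 fold change 1.61 ± 0.50 SE, adjusted p = 0.0273), and was no longer called without hepCLiP 3D replicate 1 (adjusted p = 0.0843) or without hepCLiP 2D replicate 1, 2 or 3 (adjusted p = 0.0552, 0.0902 and 0.0571).

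Markers of other cells were examined next. None of 10 lymphocyte and erythroid markers passed the filter on low counts. Of the endothelial list 2 of 10 genes were tested and neither was called (1 was lower without hepCLiP 2D replicate 1), at summed levels of 4.13 to 8.23 CPM in 2D and 4.04 to 6.95 CPM in 3D. The macrophage list had 4 of 10 genes tested and 108 to 193 against 591 to 725 CPM, nearly all of it Cd14, a lipopolysaccharide receptor that hepatocytes also make, which rose (102, 182 and 106 CPM in 2D and 675, 718 and 571 CPM in 3D). Of 13 stellate and fibroblast markers 4 were tested, with summed levels of 10.03, 1.41 and 3.94 CPM in 2D and 299, 8.86 and 6.04 CPM in 3D. The high value was that of 3D replicate 1 and came from Dcn, encoding the matrix proteoglycan decorin, at 2.22, 0.0908 and 1.85 CPM in 2D and 281, 4.68 and 2.64 CPM in 3D. Dcn was called (adjusted p = 0.0276), but not without hepCLiP 3D replicate 1, where its log2 fold change was 1.47 in place of 6.12, nor without any one of the hepCLiP 2D replicates, nor with the replicate number as a block over the 6 hepCLiP libraries (adjusted p = 0.0743). Of 9 mesothelial markers 3 were tested, and Krt19, which is also a duct marker, and Msln fell. Their summed level was 830, 2087 and 1337 CPM in 2D and 6.95, 38.9 and 32.1 CPM in 3D, so it was far lower in every 3D library. The part of such cells in the results was not tested, and in bulk RNA fewer cells of a type and less RNA per cell cannot be told apart.

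The start regions of genes at the 2 ends of the response show the sequences that lie upstream of them. Promoters were taken from RefSeq (GRCm38.p6, a build other than that of the counts), which matched 10826 of the 14798 genes tested. The 150 bases before the start are shown for a plasma protein gene that rose (Alb), a fibrinogen chain that rose (Fgb), a squamous gene that fell (Sprr1a) and a mitotic cyclin that fell (Ccnb1). Capitals mark matches, on either strand, to C/EBP (TTGCNNAA), AP-1 (TGANTCA), TEAD (CATTCC) or NF-Y (CCAAT). No exact match to the other motifs searched, HNF1 (its consensus of 10 letters), HNF4 (CAAAGTCCA), STAT (TTCNNNGAA) and CHR (TTTGAA), lies in these windows, and the marked matches do not overlap. Near matches were not counted. Between its 2 NF-Y matches the Alb window holds a run that differs from the HNF1 consensus in the last letter alone. The Fgb window also holds, on the opposite strand, a run that differs from this consensus in 1 letter. The absence of an exact match therefore does not show that Alb or Fgb lacks an HNF1 site. The windows are chr5:90460720-90460869 (plus strand) for Alb, chr3:83049864-83050013 (minus strand) for Fgb, chr3:92485882-92486031 (minus strand) for Sprr1a and chr13:100786487-100786636 (minus strand) for Ccnb1, printed 5′ to 3′ on the gene's strand.
Alb: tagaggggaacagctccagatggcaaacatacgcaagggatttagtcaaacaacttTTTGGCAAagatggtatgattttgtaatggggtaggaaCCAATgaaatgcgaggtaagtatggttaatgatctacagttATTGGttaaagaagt
Fgb: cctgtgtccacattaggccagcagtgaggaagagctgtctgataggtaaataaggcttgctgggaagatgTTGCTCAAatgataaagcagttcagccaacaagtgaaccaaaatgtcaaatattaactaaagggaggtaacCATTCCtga
Sprr1a: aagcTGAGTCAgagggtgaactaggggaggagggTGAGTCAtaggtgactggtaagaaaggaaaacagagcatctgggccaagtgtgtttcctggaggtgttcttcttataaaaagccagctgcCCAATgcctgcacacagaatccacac
Ccnb1: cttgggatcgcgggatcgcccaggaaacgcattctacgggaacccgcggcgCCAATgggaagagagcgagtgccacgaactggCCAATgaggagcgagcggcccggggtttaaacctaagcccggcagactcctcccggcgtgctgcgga
Alb holds 1 C/EBP and 2 NF-Y matches, Fgb 1 C/EBP and 1 TEAD match, Sprr1a 2 AP-1 and 1 NF-Y match, and Ccnb1 2 NF-Y matches. Alb, encoding albumin, had 142, 19.9 and 690.3 CPM in 2D and 26595, 21476 and 23118 CPM in 3D (log2 fold change 6.38 ± 1.58 SE, adjusted p = 0.00998). Fgb had 405, 125 and 389 CPM in 2D and 31258, 26864 and 26271 CPM in 3D (log2 fold change 6.52 ± 1.05 SE, adjusted p = 0.00108). Ccnb1, which drives entry into mitosis, had 77.9, 72.3 and 93.6 CPM in 2D and 12.1, 2.98 and 13.3 CPM in 3D (log2 fold change -3.10 ± 0.52 SE, adjusted p = 0.00133). The cultures did not overlap for these 3 genes.

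Across genes, the shares of promoters with a match were compared as a description, with no test, over windows of 300 bases (250 before and 50 after the start). The C/EBP letters were in 20.2% of the 476 called genes that were at least 8-fold higher in 3D, in 10.7% of the 225 at least 8-fold lower, and in 12.2% of all 27025 genes in the table. HNF1 letters were in 3.99%, 0% and 0.4699% of these groups, and HNF4 letters in 3.78%, 1.33% and 0.555%. STAT letters were in 11.1%, 9.33% and 9.55%. AP-1 letters were in 10.9%, 10.7% and 8.97%, and TEAD letters in 19.5%, 18.7% and 16.6%. CHR letters were in 19.96%, 23.1% and 20.2%. NF-Y letters were in 43.9%, 42.7% and 41.1%, and in 65% of 40 S phase genes with a promoter. Over the tested genes that have a promoter, from which the called groups are drawn, the shares were 43.2% for NF-Y, 10.5% for C/EBP and 14.6% for CHR. They were 6.63% for AP-1, 14.9% for TEAD, 8.47% for STAT, 0.434% for HNF1 and 0.628% for HNF4. Without the 8-fold limit, C/EBP letters were in 13.4% of 1928 genes called higher and 9.04% of 2025 called lower, a smaller difference. In these larger groups HNF1 letters were in 1.35% and 0.148%, and HNF4 letters in 1.297% and 0.346%. The shares were 9.6% and 7.9% for STAT, 8.04% and 6.67% for AP-1, and 16.8% and 14.9% for TEAD. For CHR they were 13.8% and 17.5%, and for NF-Y 46.7% and 44.9%. The C/EBP letters were in 40.9% of 22 coagulation genes and in 23.5% of 17 complement genes. The AP-1, TEAD and NF-Y letters were each in 22.7% of these coagulation genes. STAT letters were in 18.2%, CHR letters in 13.6%, HNF1 letters in 4.55% and HNF4 letters in 0% of them. In the complement genes, CHR letters were in 29.4%, TEAD and NF-Y letters each in 23.5% and STAT letters in 17.6%. HNF1 letters were in 11.8%, AP-1 letters in 5.88% and HNF4 letters in 0% of the complement genes. In the S phase genes the shares were 17.5% for CHR, 12.5% for TEAD, 10% for C/EBP and 7.5% for STAT. They were 0% for AP-1, HNF1 and HNF4. A match is a run of letters only.

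Of the 14798 genes tested, 34.7% were called at an adjusted p under 0.05 (edgeR's quasi-likelihood test with Benjamini-Hochberg adjustment), 16.9% higher and 17.9% lower in 3D. These shares of rises and falls are the background for the counts of every gene list below. The rises reached further than the falls. At log2 fold changes of 7 or more in size, 173 genes rose and 16 fell, whereas below 1 there were 876 rises and 1121 falls. The CPM of the cultures did not overlap for 46.9% of genes. A total of 78 genes lay under 1 CPM in every 2D library and over 10 CPM in every 3D library, and 8 showed the reverse, namely Clca3b, Dio3, its antisense neighbour Dio3os, Itgb6, Serpinb9b, Sox17, Trdv4 and Wincr1, listed here after their values were seen.

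On the TMM scale, the CPM that moved were concentrated in few rising genes and spread over many falling ones. Summed over the 6927 genes with a higher mean in 3D, 616750.0 CPM were gained, of which the 10 largest gains made up 40.8% and the 100 largest 74.3%. Over the 7870 genes with a lower mean, 201179 CPM were lost, with 7.26% in the 10 largest and 30.8% in the 100 largest losses. The TMM factors were 1.16 to 1.19 in hepCLiP 2D and 0.76 to 0.84 in hepCLiP 3D. The excess of gains over losses follows from these factors and does not show a net gain of transcript. CPM also depend on transcript length. The gains were led by Trf, the plasma iron carrier, Hp, encoding haptoglobin, which binds free haemoglobin, the fibrinogen chains Fga and Fgb, the central complement protein C3, Alb, and Apoa1, the main protein of high-density lipoprotein. Trf had 5328, 3913 and 3501 CPM in 2D and 76572, 58129.5 and 38421 CPM in 3D (log2 fold change 3.76 ± 0.40 SE, adjusted p = 1.36e-04). Hp had 318, 529 and 491 CPM in 2D and 33177, 36111 and 25454 CPM in 3D (log2 fold change 6.15 ± 0.93 SE, adjusted p = 7.63e-04). Each was higher in every 3D library. The losses among called genes were led by Sprr1a, Pkm, Actb and Gclc.

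**Figure D1:**
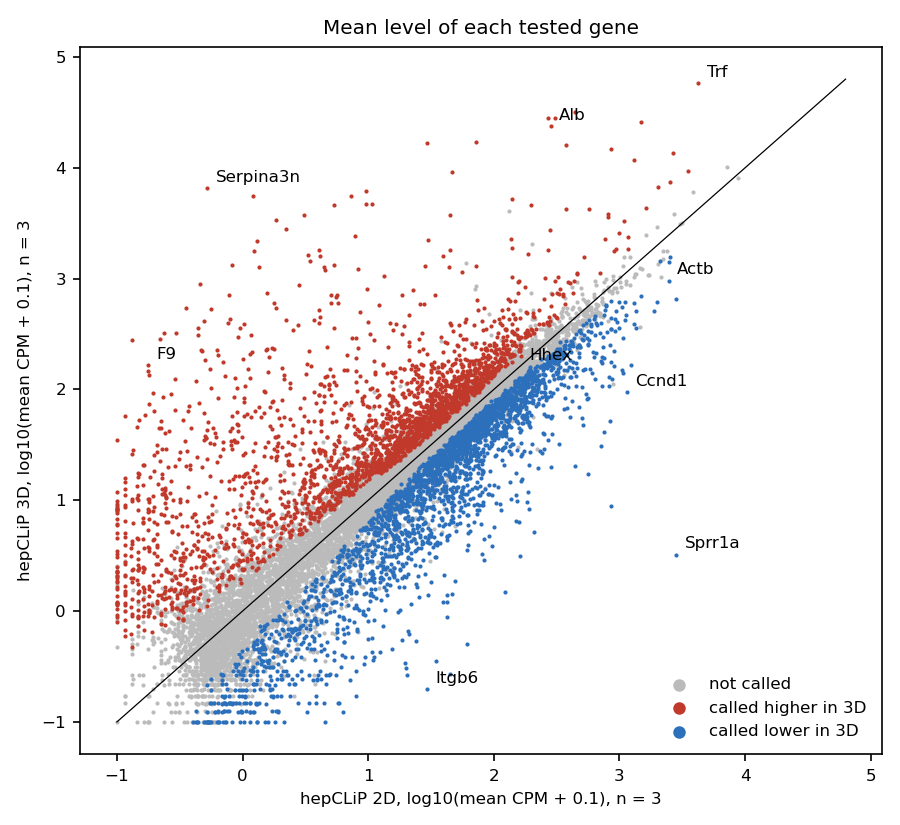
Mean CPM of each of the 14798 genes tested in hepCLiP 2D (x axis) and hepCLiP 3D (y axis), both as log10(CPM + 0.1), with genes called higher in 3D in red, called lower in blue and not called in grey. Rises extend far above the diagonal, to Serpina3n, and Sprr1a is the gene that fell furthest below it.

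Complement genes, whose proteins mark and lyse microbes in plasma, rose for 16 of 24 tested members (background 16.9%) and fell for 1, with a median log2 fold change of 4.14. There were 2 falls with library totals alone, with the replicate number as a block, without bilCLiP 3D replicate 3 and without hepCLiP 2D replicate 2. None fell without hepCLiP 3D replicate 1. Serping1, the C1 inhibitor that restrains the classical pathway, had 0.924, 0.409 and 0.0499 CPM in 2D and 1089, 274 and 229 CPM in 3D (log2 fold change 10.13 ± 1.08 SE, adjusted p = 1.39e-04). It was near 0 in every 2D library. Hc, encoding C5, had 1.52, 0.0454 and 0.499 CPM in 2D and 488, 542 and 256 CPM in 3D (log2 fold change 9.26 ± 1.06 SE, adjusted p = 1.95e-04), and C4b had 5.45, 3.45 and 0.699 CPM in 2D and 2377, 1003 and 1489 CPM in 3D (log2 fold change 8.98 ± 1.10 SE, adjusted p = 2.67e-04). Thus factors of the early and of the terminal steps were up together, with no overlap between cultures. Mbl2, a lectin that starts the lectin pathway, had 20.6, 0.0908 and 0.1497 CPM in 2D and 131, 53.1 and 31.1 CPM in 3D and did not pass the test (adjusted p = 0.103), while blocking by replicate number made it a call (adjusted p = 0.00748). Its 2D levels differed widely between replicates. Cfb, the protease of the alternative pathway, overlapped between cultures (34.5, 22.2 and 13.1 CPM in 2D and 43.4, 47.6 and 18.8 CPM in 3D) and was not called.

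Coagulation and fibrinolysis genes rose in 22 of 30 cases and fell in 5, among them F3, Plau, Plaur and Thbd, with a median of 6.23, and their summed level went from 1705 to 2555 CPM in 2D to 75643 to 100985 in 3D. F9, the clotting factor IX gene on the X chromosome, had 0.139, 0.0454 and 0.0499 CPM in 2D and 156, 190.3 and 152 CPM in 3D (log2 fold change 10.93 ± 0.54 SE, adjusted p = 7.00e-06). The 3D libraries lay close together and the 2D ones were at a few counts. Serpinc1, encoding antithrombin, the main brake on thrombin, had 1.11, 0.681 and 0.2495 CPM in 2D and 972, 637 and 535 CPM in 3D (log2 fold change 10.01 ± 1.33 SE, adjusted p = 4.09e-04). Kng1, encoding the kinin precursor kininogen, had 5.36, 8.04 and 14.9 CPM in 2D and 6021, 7666 and 4837 CPM in 3D (log2 fold change 9.36 ± 1.06 SE, adjusted p = 1.86e-04). A clotting factor, an inhibitor and a kinin precursor were thus all higher in 3D. The opposite held for Plau, encoding urokinase, the cell-bound activator of plasminogen, with 3.97, 8.22 and 11.4 CPM in 2D and 0.0732, 0 and 0.139 CPM in 3D, or 495 counts summed over 2D and 3 over 3D, a ratio of 109 (95% interval 37.2 to 532, counting error only) in favour of 2D, while Plg, encoding its substrate plasminogen, had 0.878, 1.23 and 1.298 CPM in 2D and 1629.5, 2507 and 1222 CPM in 3D (log2 fold change 10.61 ± 0.89 SE, adjusted p = 4.64e-05). Every library of one culture lay apart from every library of the other, in opposite directions for enzyme and substrate. Plat, the tissue-type activator, overlapped (149, 124 and 371 CPM in 2D and 158, 50.1 and 86.1 CPM in 3D) and was not called.

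Genes of lipoprotein assembly and uptake rose in 21 of 28 cases and fell in 1 (median 3.63). None fell whichever hepCLiP library was left out, nor with DESeq2. Apoa2, a protein of high-density lipoprotein, had 1.57, 1.82 and 0.399 CPM in 2D and 1331, 1445 and 1028 CPM in 3D (log2 fold change 9.96 ± 1.18 SE, adjusted p = 2.25e-04). Apoc3, which slows clearance of triglyceride-rich particles, had 0.832, 0.545 and 3.49 CPM in 2D and 216, 169 and 324 CPM in 3D (log2 fold change 7.20 ± 1.17 SE, adjusted p = 0.00112). Both were at a few CPM or less in 2D and far above that in every 3D library. Apoe, a ligand of remnant receptors, had 1092, 63.8 and 1436 CPM in 2D and 18648, 12899 and 13118 CPM in 3D (log2 fold change 4.11 ± 1.01 SE, adjusted p = 0.00966). Its 2D levels split, with replicate 2 far below the other 2D libraries, yet the 3D libraries were close to each other. Lrp1, a remnant receptor, had 131, 6.63 and 73.9 CPM in 2D and 1237, 752 and 453 CPM in 3D, with no overlap. It did not pass the test (log2 fold change 3.53, adjusted p = 0.0563), but did with the replicate number as a block (adjusted p = 0.0151).

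Iron, heme and copper genes rose in 15 of 27 cases and fell in 2 (median 1.09), or in 11 and 5 with library totals alone (median 0.52). Only 1 fell without hepCLiP 2D replicate 1, 3D replicate 2 or 3D replicate 3. Tfr2, the iron-sensing transferrin receptor of hepatocytes, had 45.7, 21.3 and 15.7 CPM in 2D and 531, 772 and 479.6 CPM in 3D (log2 fold change 4.43 ± 0.55 SE, adjusted p = 2.89e-04). Hjv, encoding hemojuvelin, a co-receptor that drives hepcidin, had 0, 0 and 0.399 CPM in 2D and 112, 94.98 and 49.1 CPM in 3D (log2 fold change 9.32 ± 1.14 SE, adjusted p = 5.53e-04). Both sensors rose without overlap. Hamp, encoding the iron hormone hepcidin itself, had 114, 1.32 and 349.8 CPM in 2D and 16.5, 0.0709 and 73.1 CPM in 3D, and did not pass the test (adjusted p = 0.3601). Within each pair it was lower in 3D, and blocking by replicate number gave a called log2 fold change of -2.58 (adjusted p = 0.00462). Hamp is also a known STAT3 target and a BMP target. Tfrc, the transferrin receptor of dividing cells, had 177, 243 and 178 CPM in 2D and 127, 147 and 106 CPM in 3D and did not pass the test (adjusted p = 0.255).

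**Figure D2:**
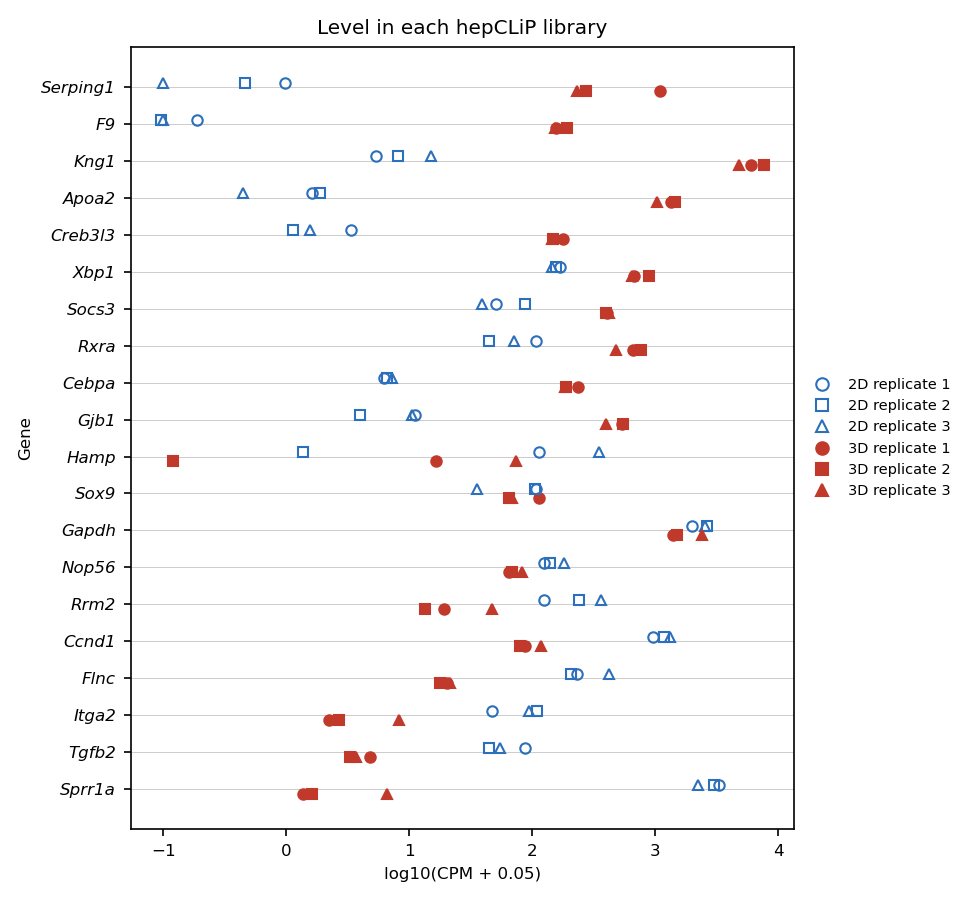
CPM of 20 named genes in each hepCLiP library, on a log10 axis of CPM + 0.05, with 2D libraries as blue open symbols and 3D libraries as red filled symbols, and replicates 1, 2 and 3 as circles, squares and triangles. For most genes the symbols of the cultures form separate clusters, while Hamp, Sox9 and Gapdh overlap.

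Of 53 genes of endoplasmic reticulum (ER) translocation, folding and export 39 rose and none fell, with a median log2 fold change of 0.86. With library totals alone the counts were 23 rises and 6 falls, with a median of 0.29. Creb3l3, a liver transcription factor released from the ER membrane, had 3.33, 1.09 and 1.497 CPM in 2D and 179, 146 and 145 CPM in 3D (log2 fold change 6.31 ± 0.55 SE, adjusted p = 5.69e-05). Xbp1, a factor that expands the secretory pathway, had 167, 154 and 145 CPM in 2D and 671, 890.4 and 651 CPM in 3D (log2 fold change 2.25 ± 0.19 SE, adjusted p = 5.20e-05). Both were higher in every 3D library. Dnajc3, a co-chaperone that also restrains the translation kinase PERK, had 111, 103 and 116 CPM in 2D and 435, 455 and 395 CPM in 3D (log2 fold change 1.96 ± 0.20 SE, adjusted p = 1.23e-04). Sdf2l1, an ER chaperone partner, had 35.3, 43.5 and 26.7 CPM in 2D and 175, 168 and 88.7 CPM in 3D (log2 fold change 2.04 ± 0.36 SE, adjusted p = 0.00173). Canx, encoding the lectin chaperone calnexin, had 622, 591 and 448 CPM in 2D and 582, 609 and 445 CPM in 3D, which overlapped, and did not pass the test (adjusted p = 0.933). The median is small beside that of the coagulation list, 6.23.

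Genes of the oncostatin M, JAK and STAT3 axis rose in 18 of 35 cases and fell in 1 (median 1.25), with 13 rises, 5 falls and a median of 0.67 with library totals alone and 2 falls with the replicate number as a block. None fell without hepCLiP 2D replicate 1, 2D replicate 3 or 3D replicate 3. Among receptors, Osmr, the oncostatin M receptor, had 54.1, 78.6 and 25.1 CPM in 2D and 194, 269 and 145 CPM in 3D (log2 fold change 1.95 ± 0.46 SE, adjusted p = 0.00818). Il6ra, the interleukin 6 receptor, had 5.59, 7.59 and 6.49 CPM in 2D and 58.1, 102 and 65.1 CPM in 3D (log2 fold change 3.52 ± 0.32 SE, adjusted p = 6.64e-05). Both were higher in all 3D libraries. Of the transducers, Stat3 had 148, 157 and 114 CPM in 2D and 368, 345 and 283 CPM in 3D (log2 fold change 1.25 ± 0.19 SE, adjusted p = 7.50e-04), while Jak1 had 163, 135 and 185 CPM in 2D and 204, 166 and 191 CPM in 3D and Jak2 108, 87.8 and 87.8 CPM in 2D and 77.9, 84.5 and 104 CPM in 3D, each with overlap and not called. Of the targets, Socs3, the feedback inhibitor that STAT3 induces, had 50.6, 87.9 and 38.8 CPM in 2D and 405, 397 and 419 CPM in 3D (log2 fold change 2.78 ± 0.29 SE, adjusted p = 1.29e-04). The 3D libraries lay within a narrow range and all above 2D. Fgl1, an acute phase hepatokine, had 4.39, 1.91 and 3.74 CPM in 2D and 1889, 1079 and 1330.1 CPM in 3D (log2 fold change 8.74 ± 0.47 SE, adjusted p = 7.00e-06). Lrg1, a secreted acute phase glycoprotein, had 2.17, 4.13 and 5.74 CPM in 2D and 1367, 2218 and 1264 CPM in 3D (log2 fold change 8.65 ± 0.53 SE, adjusted p = 1.11e-05). Saa3, an acute phase serum amyloid of a near-identical family, had 154, 212 and 32.6 CPM in 2D and 709, 11059 and 419 CPM in 3D and did not pass the test (adjusted p = 0.05299), with 3D replicate 2 far above the others. Blocking by replicate number made it a call (adjusted p = 0.0264). Junb, an immediate early target, had 296, 299 and 217 CPM in 2D and 382, 281 and 349 CPM in 3D, which overlapped, and was not called, nor was Cebpb (175, 164 and 94.9 CPM in 2D and 132, 164 and 138 CPM in 3D).

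Nuclear receptors and their partners rose in 13 of 33 cases and fell in 3 (median 0.35, but -0.23 with library totals alone, where 10 rose and 9 fell). Rxra, the shared partner of many liver receptors, had 107, 44.4 and 70.5 CPM in 2D and 654, 772 and 481 CPM in 3D (log2 fold change 3.11 ± 0.37 SE, adjusted p = 2.25e-04). Ppara, a sensor of fatty acids, had 3.79, 4.36 and 4.09 CPM in 2D and 59.9, 66.4 and 30.3 CPM in 3D (log2 fold change 3.68 ± 0.52 SE, adjusted p = 5.72e-04). Nr1h3, the oxysterol receptor LXR alpha, had 18.1, 10.7 and 13.7 CPM in 2D and 61.8, 59.9 and 59.8 CPM in 3D (log2 fold change 2.10 ± 0.41 SE, adjusted p = 0.00315). These 3 rose in every pair. Rarb, a retinoic acid receptor, went the other way, with 393 counts summed over 2D and 1 over 3D, a ratio of 260.2 (95% interval 46.4 to 10305, counting error only) in favour of 2D. Nr1h4, the bile acid receptor FXR, had 38.7, 115 and 37.7 CPM in 2D and 30.6, 90.5 and 69.6 CPM in 3D, which overlapped, and did not pass the test (adjusted p = 0.998).

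Circadian clock genes rose in 13 of 20 cases and none fell (median 0.90). With library totals alone the counts were 10 and 1 and the median 0.33. Hlf, an output factor of the clock, had 0.878, 0.0454 and 0.599 CPM in 2D and 14.1, 7.94 and 9.93 CPM in 3D (log2 fold change 4.38 ± 0.86 SE, adjusted p = 0.00303), and its relative Tef had 50.8, 41.2 and 28.05 CPM in 2D and 169, 187 and 143 CPM in 3D (log2 fold change 2.05 ± 0.23 SE, adjusted p = 1.50e-04). Usp2, a deubiquitinase under clock control, had 1.43, 1.18 and 0.699 CPM in 2D and 12.1, 31.3 and 12.8 CPM in 3D (log2 fold change 4.08 ± 0.90 SE, adjusted p = 0.00556). All were higher in every 3D library. Per1, a core repressor, had 49.4, 76.5 and 79.3 CPM in 2D and 49.2, 56.1 and 52 CPM in 3D, with overlap, and was not called, and Bhlhe40, a further repressor, had 122, 126 and 137 CPM in 2D and 137, 99.6 and 125 CPM in 3D and was not called. Collection times were not given in the sources used here.

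Phase II enzymes, which conjugate foreign and endogenous compounds, rose in 22 of 34 cases and fell in 1 (median 2.38). There were 2 falls with library totals alone and without bilCLiP 2D replicate 1, bilCLiP 2D replicate 2 or hepCLiP 3D replicate 2. Sult1d1, a sulfotransferase, had 4.67, 3.54 and 6.69 CPM in 2D and 226, 576 and 1005 CPM in 3D (log2 fold change 6.92 ± 0.73 SE, adjusted p = 1.32e-04). Gstz1, a glutathione transferase of tyrosine breakdown, had 11.1, 9.86 and 21.7 CPM in 2D and 167, 241 and 316 CPM in 3D (log2 fold change 4.09 ± 0.43 SE, adjusted p = 1.39e-04). Both were higher in every 3D library. Gnmt, a methyltransferase abundant in liver, had 0.739, 0.772 and 0.898 CPM in 2D and 47.4, 62.7 and 77.8 CPM in 3D (log2 fold change 6.27 ± 0.74 SE, adjusted p = 2.24e-04). Gsta3, a glutathione transferase with near-identical relatives, had 511, 229 and 525 CPM in 2D and 499, 885 and 1113 CPM in 3D, which overlapped, and did not pass the test (adjusted p = 0.0855), while blocking by replicate number made it a call (adjusted p = 0.0478).

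Solute carriers and ABC pumps of hepatocytes rose in 24 of 39 cases and fell in 4 (median 3.22), with 7 falls with library totals alone. The falls were 2 without bilCLiP 2D replicate 2, any one of the bilCLiP 3D libraries, hepCLiP 2D replicate 3, hepCLiP 3D replicate 1 or hepCLiP 3D replicate 2. Slc38a3, the glutamine transporter of hepatocytes, had 13.7, 1.82 and 24.4 CPM in 2D and 1047, 1316 and 783 CPM in 3D (log2 fold change 6.30 ± 0.90 SE, adjusted p = 6.00e-04). Slc17a2, an anion transporter, had 2.13, 2.498 and 2.595 CPM in 2D and 346, 351 and 336 CPM in 3D (log2 fold change 7.16 ± 0.67 SE, adjusted p = 7.52e-05), with the 3D libraries within a narrow range. Abcg5, a pump that exports sterols into bile, had 0.277, 0 and 0.299 CPM in 2D and 19.8, 18.1 and 23.5 CPM in 3D (log2 fold change 6.70 ± 1.16 SE, adjusted p = 0.00158). All were low in 2D and higher in every 3D library. Abcc2, a canalicular pump for conjugates, was already expressed in 2D, with 497, 391.9 and 359 CPM in 2D and 513, 578 and 502 CPM in 3D, and was not called, and Abcc3, its basolateral relative, overlapped (239, 177 and 306 CPM in 2D and 239, 210.2 and 198 CPM in 3D). The peroxisome list rose in 25 of 39 cases and fell in 1 (median 1.06), or 18 and 7 with library totals alone (median 0.48), and 2 fell with the replicate number as a block. No peroxisome gene fell whichever hepCLiP library was left out, nor without bilCLiP 3D replicate 1. Uox, encoding urate oxidase, had 0.3697, 0.273 and 0.699 CPM in 2D and 129.7, 86.5 and 246 CPM in 3D (log2 fold change 8.42 ± 0.98 SE, adjusted p = 2.08e-04). Scp2, a peroxisomal thiolase and lipid carrier, had 164, 122 and 133 CPM in 2D and 901, 1152 and 1071 CPM in 3D (log2 fold change 2.90 ± 0.21 SE, adjusted p = 1.68e-05).

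Of 46 nuclear genes of the respiratory chain 14 rose and none fell (background 16.9%). Their median of 0.29 became -0.29 with library totals alone, where 2 rose and 12 fell. Without 1 library the number of rises ran from 9 to 18, the lowest without hepCLiP 2D replicate 2. Uqcrq, a subunit of complex III, had 154, 157 and 125 CPM in 2D and 316, 330.2 and 295 CPM in 3D (log2 fold change 1.11 ± 0.19 SE, adjusted p = 0.00143). Atp5a1, a subunit of the ATP synthase, had 830.0, 792 and 832 CPM in 2D and 826, 786 and 802 CPM in 3D and was not called. The 13 genes of mitochondrial DNA were not called, and their summed level was 18539, 16929.7 and 19882 CPM in 2D and 17156, 11344 and 45853 CPM in 3D, with 3D replicate 3 the highest of the 6 libraries and 3D replicate 2 the lowest. Of 21 citrate cycle genes 6 rose and 4 fell (background 16.9% and 17.9%), but with library totals alone 1 rose and 12 fell. The number of rises was 3 without bilCLiP 3D replicate 3 or hepCLiP 2D replicate 1 or hepCLiP 2D replicate 3 or hepCLiP 3D replicate 2 or hepCLiP 3D replicate 3. The number of falls was 2 without hepCLiP 3D replicate 1. Pcx, which makes oxaloacetate from pyruvate, had 15.5, 14.03 and 15.02 CPM in 2D and 459, 459 and 265 CPM in 3D (log2 fold change 4.73 ± 0.35 SE, adjusted p = 1.86e-05), whereas Cs, encoding citrate synthase, had 281, 297 and 306 CPM in 2D and 124, 153 and 129 CPM in 3D (log2 fold change -1.12 ± 0.13 SE, adjusted p = 2.00e-04). The groups were apart for both genes, in opposite directions. Of 25 glycolysis genes 4 rose and 6 fell (median -0.39), against the same background. With library totals alone 2 rose and 11 fell (median -0.95). The median was -0.0554 without hepCLiP 2D replicate 2 and -0.16 without hepCLiP 3D replicate 1. The number of rises was 2 without hepCLiP 2D replicate 1 or hepCLiP 3D replicate 2. Pkm, the pyruvate kinase of dividing and muscle cells, had 3028, 3518 and 1909 CPM in 2D and 616, 738 and 593 CPM in 3D (log2 fold change -2.12 ± 0.34 SE, adjusted p = 0.00102). Hk2, an inducible hexokinase, had 46.4, 35.2 and 52.1 CPM in 2D and 22.6, 12.97 and 13.1 CPM in 3D (log2 fold change -1.46 ± 0.26 SE, adjusted p = 0.00182). Gapdh had 1979, 2627 and 2527 CPM in 2D and 1388, 1503 and 2402 CPM in 3D, with overlap, and was not called.

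Genes of growth hormone, insulin and IGF signalling rose in 9 of 23 cases and fell in 6 (median 0.81). This median was 0.34 without hepCLiP 2D replicate 3, 0.35 without hepCLiP 3D replicate 1 and 0.22 with library totals alone, where 7 rose and 7 fell. Ghr, the growth hormone receptor, had 38.9, 14.4 and 17.4 CPM in 2D and 149.6, 143 and 145 CPM in 3D (log2 fold change 2.63 ± 0.33 SE, adjusted p = 2.96e-04). Gcgr, the glucagon receptor, had 0.462, 0.0454 and 0.1996 CPM in 2D and 67.5, 59.7 and 31.6 CPM in 3D (log2 fold change 7.77 ± 0.84 SE, adjusted p = 1.48e-04). Igf1r, the receptor that hepatocytes largely lack, had 55.2, 59.8 and 61.04 CPM in 2D and 17.3, 20.4 and 14.9 CPM in 3D (log2 fold change -1.74 ± 0.13 SE, adjusted p = 1.86e-05). Receptors of liver hormones were thus up and this growth factor receptor down, with no overlap. Igfbp1, a secreted IGF carrier, had 3.19, 1.91 and 8.28 CPM in 2D and 1517, 1009.5 and 1049.7 CPM in 3D (log2 fold change 8.06 ± 1.05 SE, adjusted p = 3.61e-04). Igf2, an imprinted fetal growth factor, had 0.0924, 0.136 and 0 CPM in 2D and 365, 40.5 and 30.5 CPM in 3D (log2 fold change 10.74 ± 1.41 SE, adjusted p = 3.77e-04), with 3D replicate 1, the library high in Dcn, well above the other 3D libraries. Of 25 imprinted genes 6 rose and 4 fell (background 16.9% and 17.9%). The counts were 4 and 9 with library totals alone and 6 and 7 with the replicate number as a block. Among those that fell were Peg3, a zinc finger regulator, at 2390.3, 1551 and 2017 CPM in 2D and 605, 504 and 756 CPM in 3D (log2 fold change -1.68 ± 0.27 SE, adjusted p = 9.95e-04), and its neighbour Usp29, at 46.4, 22.4 and 41.6 CPM in 2D and 8.05, 7.37 and 7.85 CPM in 3D (log2 fold change -2.24 ± 0.26 SE, adjusted p = 2.08e-04).

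**Figure D3:**
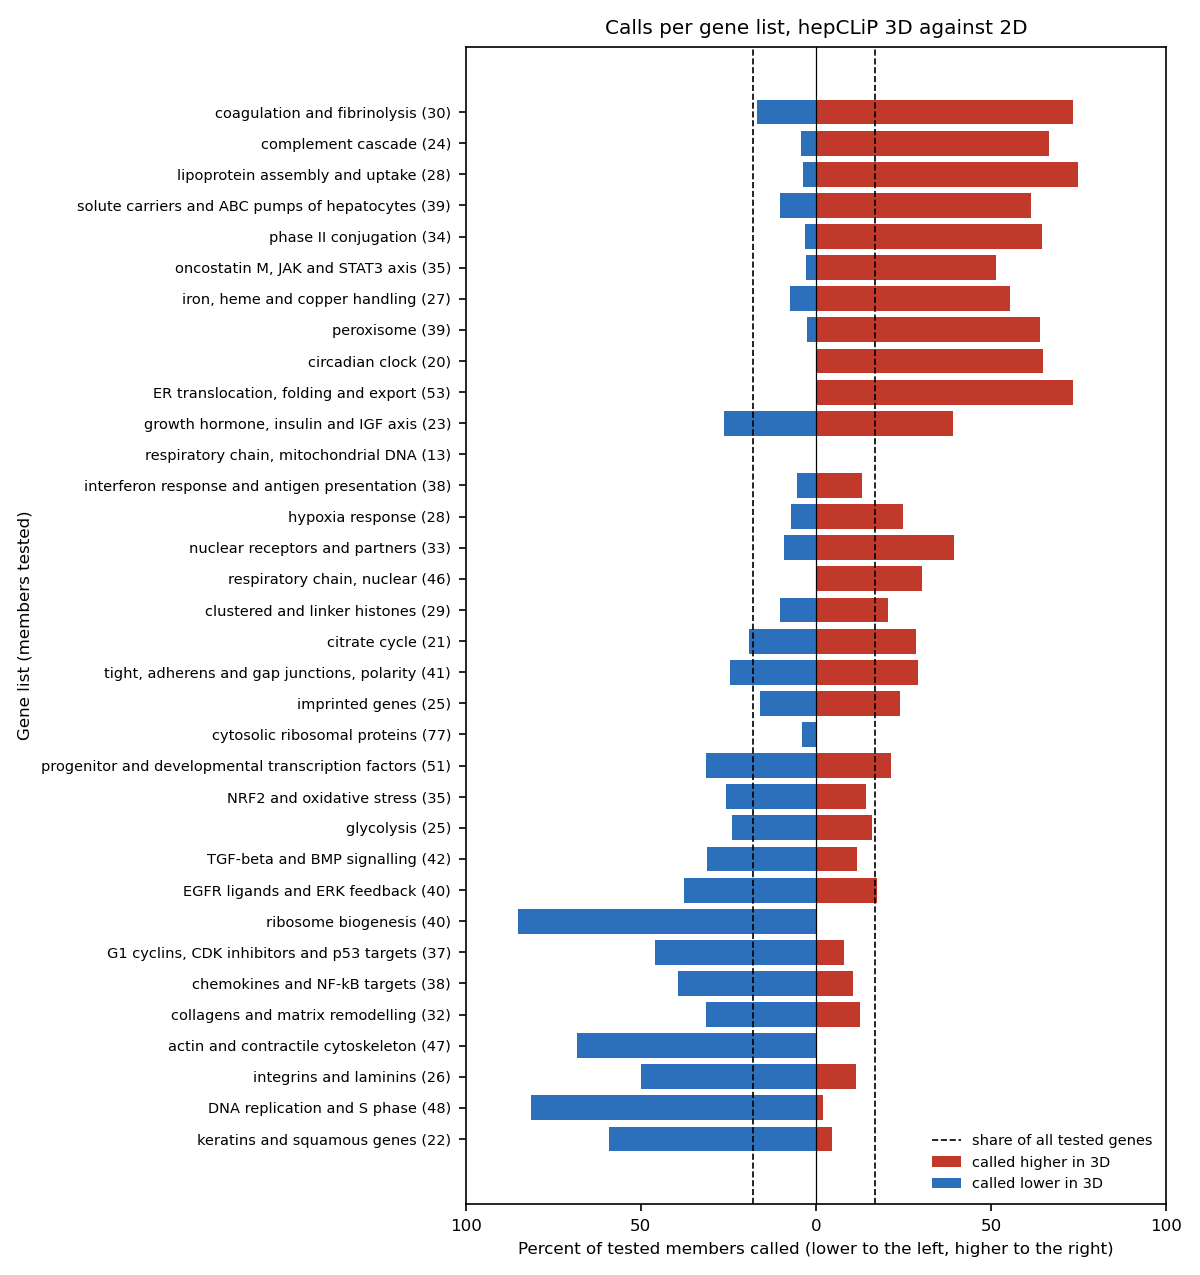
Percent of tested members called higher (red, to the right) and lower (blue, to the left) in 3D for each of the 34 pathway lists, ordered by median log2 fold change, with the number tested beside each name. Dashed lines mark the shares over all genes tested, 16.9% higher and 17.9% lower, and the lists of coagulation and of keratins and squamous genes lie at opposite ends.

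Of 48 genes of DNA replication tested 39 were lower (background 17.9%) and 1 was higher, with a median log2 fold change of -1.60. None was higher without hepCLiP 2D replicate 1, 2D replicate 2 or 3D replicate 3. Rrm2, the subunit of ribonucleotide reductase made in S phase, had 124, 241 and 362 CPM in 2D and 19.2, 13.5 and 47.1 CPM in 3D (log2 fold change -3.19 ± 0.56 SE, adjusted p = 0.001703). Chaf1b, a chaperone that loads histones on new DNA, had 33.04, 44.1 and 48.5 CPM in 2D and 7.904, 6.45 and 10.3 CPM in 3D (log2 fold change -2.35 ± 0.27 SE, adjusted p = 1.96e-04). Pole, the leading-strand polymerase, had 44.7, 49.8 and 78.6 CPM in 2D and 16.5, 4.89 and 7.85 CPM in 3D (log2 fold change -2.57 ± 0.46 SE, adjusted p = 0.00181). All 3D libraries were below all 2D libraries for these genes, though none was at 0. E2f1, the factor that drives S phase genes, had 29.9, 33.7 and 38.5 CPM in 2D and 29.6, 19.6 and 22.7 CPM in 3D and did not pass the test (adjusted p = 0.0898), and Rfc1, a clamp loader subunit, overlapped (45.7, 66.9 and 62.5 CPM in 2D and 45.9, 43.4 and 46.7 CPM in 3D).

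Of 37 genes of G1 control and p53 response 17 fell and 3 rose (median -0.73), or 28 and 1 with library totals alone (median -1.30). Ccnd1, the cyclin that opens G1, had 963, 1187 and 1311 CPM in 2D and 87.2, 79.5 and 118 CPM in 3D (log2 fold change -3.60 ± 0.27 SE, adjusted p = 1.86e-05), and its partner Cdk6 had 141, 182 and 169 CPM in 2D and 34.1, 36.3 and 27.1 CPM in 3D (log2 fold change -2.33 ± 0.16 SE, adjusted p = 1.61e-05). Myc, a driver of growth and ribosome synthesis, had 91.5, 98.9 and 121 CPM in 2D and 20.6, 25.6 and 30.7 CPM in 3D (log2 fold change -2.02 ± 0.17 SE, adjusted p = 4.64e-05). Each fell in all 3 pairs. Ccng1, a p53 target, had 703, 775 and 671 CPM in 2D and 175, 152 and 212 CPM in 3D (log2 fold change -1.99 ± 0.24 SE, adjusted p = 2.37e-04). Gdf15, a secreted stress factor, had 155, 86.5 and 104 CPM in 2D and 20.5, 31.04 and 17.9 CPM in 3D (log2 fold change -2.32 ± 0.58 SE, adjusted p = 0.0104). Ccnd2, a second G1 cyclin, had 348, 567 and 229 CPM in 2D and 184, 157 and 96.8 CPM in 3D and did not pass the test (adjusted p = 0.0714), while blocking by replicate number made it a call (adjusted p = 0.00156).

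Of 40 ribosome biogenesis factors 34 fell and none rose, with a median of -0.73 (-1.30 with library totals alone) and a lowest log2 fold change of -1.18. Nop2, a methyltransferase of ribosomal RNA, had 95.2, 102 and 113 CPM in 2D and 45.6, 44.3 and 47.6 CPM in 3D (log2 fold change -1.17 ± 0.14 SE, adjusted p = 2.06e-04). Nop56, a protein of box C/D particles, had 124, 139.6 and 182 CPM in 2D and 64.3, 68.8 and 82.3 CPM in 3D (log2 fold change -1.05 ± 0.17 SE, adjusted p = 0.00111). The 3D libraries lay below all 2D libraries for both. Of 77 cytosolic ribosomal proteins 3 fell, fewer than the background of 17.9%, and none rose (median -0.22). That count depends on the scaling and the pairing, with 58 falls with library totals alone and 15 with the replicate number as a block. Without 1 library the number of falls ran from 0 to 4, and was 0 without 3D replicate 1, without 3D replicate 2 and without 2D replicate 2 of hepCLiP, and 1 without 2D replicate 3. The median was -0.10 without hepCLiP 3D replicate 1 and -0.79 with library totals alone. Rplp0, a stalk protein, had 1812, 2289 and 2558 CPM in 2D and 1678, 1686 and 1952 CPM in 3D, which overlapped, and was not called. The share of counts from ribosomal proteins was 4.38% to 5.35% in 2D and 2.55% to 3.17% in 3D.

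Of 47 actin and contractile genes 32 fell and none rose (median -1.32). Flnc, a filamin of contractile cells, had 232, 208 and 419 CPM in 2D and 20.1, 17.8 and 21.5 CPM in 3D (log2 fold change -3.85 ± 0.26 SE, adjusted p = 1.38e-05). Ezr, which ties actin to the apical membrane, had 575, 1044 and 849 CPM in 2D and 76.2, 138 and 171 CPM in 3D (log2 fold change -2.68 ± 0.33 SE, adjusted p = 2.78e-04). Actb, encoding beta-actin, had 2374, 2209.8 and 2802 CPM in 2D and 1147, 920.1 and 816 CPM in 3D (log2 fold change -1.36 ± 0.25 SE, adjusted p = 0.00193). All 3 were lower in every 3D library. Actg1, encoding gamma-actin, had 1637, 1228 and 1523 CPM in 2D and 396, 317 and 377 CPM in 3D, with no overlap, yet it was not called (adjusted p = 0.441) in the fit over all 12 libraries. From the 6 hepCLiP libraries alone its adjusted p was 0.00122, and with the replicate number as a block 6.23e-04. Its reads can be shared with near-identical actin copies.

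Among 26 integrins and laminins 13 fell and 3 rose (median -1.32). Itgb6, the epithelial integrin subunit that activates TGF-beta, had 13.5, 59.9 and 14.3 CPM in 2D and 0.2196, 0 and 0.0694 CPM in 3D (log2 fold change -8.17 ± 1.35 SE, adjusted p = 0.00127). Itga2, a collagen receptor subunit, had 46.8, 109 and 93.3 CPM in 2D and 2.196, 2.62 and 8.26 CPM in 3D (log2 fold change -4.25 ± 0.58 SE, adjusted p = 4.65e-04). Itgb6 was close to 0 in 3D and Itga2 at a few CPM. Hspg2, the basement membrane proteoglycan perlecan, had 228, 154 and 288 CPM in 2D and 36.8, 12.7 and 9.16 CPM in 3D (log2 fold change -3.52 ± 0.51 SE, adjusted p = 6.22e-04). Itga6, a laminin receptor subunit, overlapped (43.99, 78.8 and 95.1 CPM in 2D and 60.3, 52.8 and 67.8 CPM in 3D) and was not called. Among collagens and matrix genes 10 of 32 fell and 4 rose, or 12 and 1 with library totals alone. The number of rises was 1 without hepCLiP 2D replicate 2 or hepCLiP 3D replicate 1, and 2 without bilCLiP 3D replicate 3 or hepCLiP 2D replicate 1. Col4a1, of basement membranes, had 589, 630.2 and 1268 CPM in 2D and 107, 95.05 and 121 CPM in 3D (log2 fold change -2.94 ± 0.36 SE, adjusted p = 2.63e-04). Loxl2, which crosslinks collagen, had 154, 195 and 208 CPM in 2D and 5.64, 16.2 and 13.3 CPM in 3D (log2 fold change -3.99 ± 0.39 SE, adjusted p = 1.07e-04). The matrix protease inhibitor Timp1, a STAT3 target, rose, with 15.3, 17.5 and 15.97 CPM in 2D and 177, 69.2 and 140.4 CPM in 3D (log2 fold change 2.99 ± 0.36 SE, adjusted p = 2.27e-04). Col18a1 overlapped (1182, 993 and 506 CPM in 2D and 937, 1239.8 and 767 CPM in 3D) and was not called.

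Junction and polarity genes moved in both directions: 12 of 41 rose and 10 fell. The split was 7 and 15 with library totals alone, where the median went from 0.0113 to -0.56. Rises numbered 7 without hepCLiP 2D replicate 2 and falls 6 without hepCLiP 3D replicate 1, and leaving out 1 library gave medians from -0.0231 without hepCLiP 2D replicate 2 to 0.11 without hepCLiP 2D replicate 3. Gjb1, the main gap junction protein of hepatocytes, had 11.2, 3.91 and 10.5 CPM in 2D and 541, 550.0 and 400.5 CPM in 3D (log2 fold change 5.86 ± 0.67 SE, adjusted p = 1.89e-04). Gjb2, its partner, had 17.9, 0.863 and 28.3 CPM in 2D and 342, 418 and 268 CPM in 3D (log2 fold change 4.45 ± 1.10 SE, adjusted p = 0.0101). Cldn1, a tight junction claudin, had 0.139, 0.681 and 0.848 CPM in 2D and 21.7, 37.99 and 15.1 CPM in 3D (log2 fold change 5.48 ± 1.08 SE, adjusted p = 0.00308). All were higher in every 3D library. Jup, encoding plakoglobin of adherens junctions and desmosomes, had 252, 208 and 260.0 CPM in 2D and 85.8, 84.9 and 84.4 CPM in 3D (log2 fold change -1.50 ± 0.22 SE, adjusted p = 5.86e-04). Cdh1, encoding E-cadherin, had 534, 353 and 493 CPM in 2D and 214, 210.3 and 257 CPM in 3D and did not pass the test (adjusted p = 0.0653), while blocking by replicate number made it a call (adjusted p = 0.0192).

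Keratins and squamous genes were mostly lower, with 13 of 22 falling and 1 rising (median -1.74). Sprr1a, a precursor of the cornified envelope of skin, had 3317, 2994 and 2212 CPM in 2D and 1.32, 1.56 and 6.53 CPM in 3D (log2 fold change -9.82 ± 1.02 SE, adjusted p = 1.29e-04), the largest loss in CPM of any gene called lower. The related gene Sprr1b had 288 counts summed over 2D and none over 3D, so it was at least 63.6-fold lower in 3D against a floor of 3 counts over the group. Reads of related genes of this family may be split between them. S100a6, a calcium-binding protein of growing cells, had 654, 838 and 1246 CPM in 2D and 121, 115 and 250.005 CPM in 3D (log2 fold change -2.49 ± 0.41 SE, adjusted p = 0.00115). Krt8, a keratin that hepatocytes keep, had 1835, 2599.9 and 1949 CPM in 2D and 953, 1068 and 1114 CPM in 3D and did not pass the test (adjusted p = 0.0558), while blocking by replicate number made it a call (adjusted p = 0.00979). Ly6d, a surface protein of squamous and progenitor cells, was the member that rose, with 0, 0.318 and 1.198 CPM in 2D and 38.9, 33.5 and 50.1 CPM in 3D (log2 fold change 6.34 ± 1.05 SE, adjusted p = 0.00128).

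Ligands, receptors and feedback genes of EGFR and ERK signalling numbered 40, of which 15 fell and 7 rose (median -0.54, or -0.84 without hepCLiP 3D replicate 1). With library totals alone 21 fell and 4 rose (median -1.12). Hbegf, an EGFR ligand, had 52.4, 78.6 and 98.4 CPM in 2D and 7.61, 8.36 and 8.401 CPM in 3D (log2 fold change -3.23 ± 0.26 SE, adjusted p = 3.32e-05), Fosl1, an AP-1 subunit induced by ERK, had 9.15, 22.98 and 12.5 CPM in 2D and 1.83, 1.84 and 1.18 CPM in 3D (log2 fold change -3.20 ± 0.48 SE, adjusted p = 7.46e-04). Spry1, a feedback inhibitor, had 11.8, 9.99 and 25.8 CPM in 2D and 1.46, 2.06 and 2.22 CPM in 3D (log2 fold change -3.05 ± 0.49 SE, adjusted p = 0.00103). All 3 were lower in each 3D library. Among receptors, Erbb3 rose, with 0.924, 1.14 and 4.09 CPM in 2D and 129.6, 142 and 135 CPM in 3D (log2 fold change 6.05 ± 0.63 SE, adjusted p = 1.32e-04). Egr1, an immediate early gene, overlapped (139, 152 and 168 CPM in 2D and 251, 129 and 121 CPM in 3D) and was not called. In the TGF-beta and BMP list 13 of 42 fell and 5 rose (median -0.39), or 19 and 10 with the replicate number as a block and 22 and 4 with library totals alone. The median was -0.26 without hepCLiP 2D replicate 1, -0.62 without 2D replicate 3, -0.68 without 3D replicate 1 and -0.97 with library totals alone. Of ligands, Tgfb2 had 86.8, 44.5 and 54.6 CPM in 2D and 4.76, 3.26 and 3.61 CPM in 3D (log2 fold change -4.00 ± 0.36 SE, adjusted p = 6.49e-05) and Tgfb3 had 26.2, 44.1 and 67.98 CPM in 2D and 0.732, 0.7796 and 2.499 CPM in 3D (log2 fold change -5.09 ± 0.60 SE, adjusted p = 2.09e-04). Of targets, Id3, induced by BMP, had 254, 127 and 249.6 CPM in 2D and 11.1, 0.354 and 3.96 CPM in 3D (log2 fold change -5.36 ± 0.83 SE, adjusted p = 9.06e-04). Smad6, a BMP feedback inhibitor, had 57.1, 22.6 and 31.3 CPM in 2D and 4.32, 4.39 and 3.26 CPM in 3D (log2 fold change -3.21 ± 0.37 SE, adjusted p = 1.89e-04). Inhbc, an activin chain of the liver, had 0.0924, 0.0908 and 0 CPM in 2D and 9.81, 4.54 and 6.04 CPM in 3D (log2 fold change 6.62 ± 0.80 SE, adjusted p = 4.83e-04) and thus moved against these. A TGF-beta receptor inhibitor was present in both cultures.

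Among 38 chemokines and NF-kB targets 15 fell and 4 rose (median -0.96, or -1.51 with library totals alone). Csf1, a growth factor for macrophages, had 298, 253 and 316 CPM in 2D and 32.2, 49.8 and 35.5 CPM in 3D (log2 fold change -2.88 ± 0.18 SE, adjusted p = 1.12e-05). Ccl20, a chemokine of stressed epithelia, had 33.7, 63 and 91.4 CPM in 2D and 7.099, 4.68 and 5.97 CPM in 3D (log2 fold change -3.40 ± 0.69 SE, adjusted p = 0.00364). Cxcl12, a chemokine of resting tissue, rose, with 2.495, 0.727 and 0.898 CPM in 2D and 78.97, 68.9 and 37.7 CPM in 3D (log2 fold change 5.48 ± 0.51 SE, adjusted p = 7.52e-05). Cxcl5, a neutrophil chemokine, had 993, 811 and 844 CPM in 2D and 12.2, 309.5 and 17.2 CPM in 3D and did not pass the test (adjusted p = 0.0604), with 3D replicate 2 far above the other 3D libraries. Blocking by replicate number made it a call (adjusted p = 0.0175). Of 38 interferon and antigen presentation genes 5 rose and 2 fell, shares below the background in both directions. With the replicate number as a block 12 rose, whereas with library totals alone 1 rose and 5 fell and the median went from 0.45 to -0.14. None fell without hepCLiP 3D replicate 1, and 1 fell without bilCLiP 2D replicate 2, bilCLiP 3D replicate 1 or 3, hepCLiP 2D replicate 1 or hepCLiP 3D replicate 2. The number of rises was 1 without hepCLiP 2D replicate 1 or hepCLiP 2D replicate 3, and 3 without hepCLiP 3D replicate 2, and 9 without bilCLiP 3D replicate 1. Of 35 NRF2 and oxidative stress genes 9 fell and 5 rose (background 17.9% lower and 16.9% higher). The counts were 15 and 8 with the block and 16 and 1 with library totals alone. The number of rises was 2 without bilCLiP 2D replicate 3 or bilCLiP 3D replicate 3 or hepCLiP 2D replicate 2 or hepCLiP 3D replicate 2, and 3 without bilCLiP 3D replicate 2 or hepCLiP 2D replicate 1. Gclc, which limits glutathione synthesis, had 2353, 1849.5 and 1429 CPM in 2D and 539, 547 and 444 CPM in 3D (log2 fold change -1.88 ± 0.36 SE, adjusted p = 0.00277), while Fth1, the ferritin heavy chain, had 2285, 3209 and 2153 CPM in 2D and 5285, 10497 and 6707 CPM in 3D (log2 fold change 1.56 ± 0.38 SE, adjusted p = 0.00988). Of 28 hypoxia genes 7 rose and 2 fell (background 16.9% higher and 17.9% lower), or 4 and 4 with library totals alone. Angptl4, an inhibitor of lipoprotein lipase, had 97.4, 81.3 and 121 CPM in 2D and 439, 251 and 559 CPM in 3D (log2 fold change 2.06 ± 0.30 SE, adjusted p = 5.92e-04). Epas1, encoding HIF-2 alpha, had 57.7, 24.8 and 87.7 CPM in 2D and 301, 368 and 185 CPM in 3D (log2 fold change 2.33 ± 0.47 SE, adjusted p = 0.00374). The number of rises was 3 without hepCLiP 2D replicate 1 or hepCLiP 2D replicate 3, and 4 without hepCLiP 3D replicate 2.

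Progenitor and developmental transcription factors numbered 51, of which 16 fell and 11 rose (median -0.28), or 27 and 6 with library totals alone (median -0.85). The median was -0.16 without hepCLiP 2D replicate 1 and -0.44 without hepCLiP 3D replicate 1. Cebpa, a factor that drives hepatocyte genes and slows division, had 6.19, 6.54 and 7.14 CPM in 2D and 237, 188 and 186 CPM in 3D (log2 fold change 4.94 ± 0.32 SE, adjusted p = 1.12e-05). Foxa3, a liver-enriched forkhead factor, had 16.7, 4.72 and 10.4 CPM in 2D and 129, 102 and 77.1 CPM in 3D (log2 fold change 3.28 ± 0.76 SE, adjusted p = 0.00707). Sox17, a factor of endoderm and of the extrahepatic bile ducts, had 26.4, 10.04 and 66.6 CPM in 2D and 0.2196, 0 and 0.555 CPM in 3D (log2 fold change -7.01 ± 1.29 SE, adjusted p = 0.00216). Foxm1, a driver of mitotic genes, had 71.4, 78.7 and 124 CPM in 2D and 18.5, 4.18 and 11.2 CPM in 3D (log2 fold change -3.01 ± 0.51 SE, adjusted p = 0.00137). The rises and falls were equally free of overlap. Hhex, a factor of early liver bud cells, had 174, 173 and 146 CPM in 2D and 168, 158 and 162 CPM in 3D, nearly level over all 6 libraries, and was not called, and Sox9, a factor of ducts and progenitors, overlapped (106, 105 and 35.4 CPM in 2D and 113, 65.1 and 68.4 CPM in 3D). Of 29 clustered and linker histone genes, many of them near-identical, 6 rose and 3 fell (background 16.9% and 17.9%). With library totals alone 3 rose and 6 fell.

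**Figure D4:**
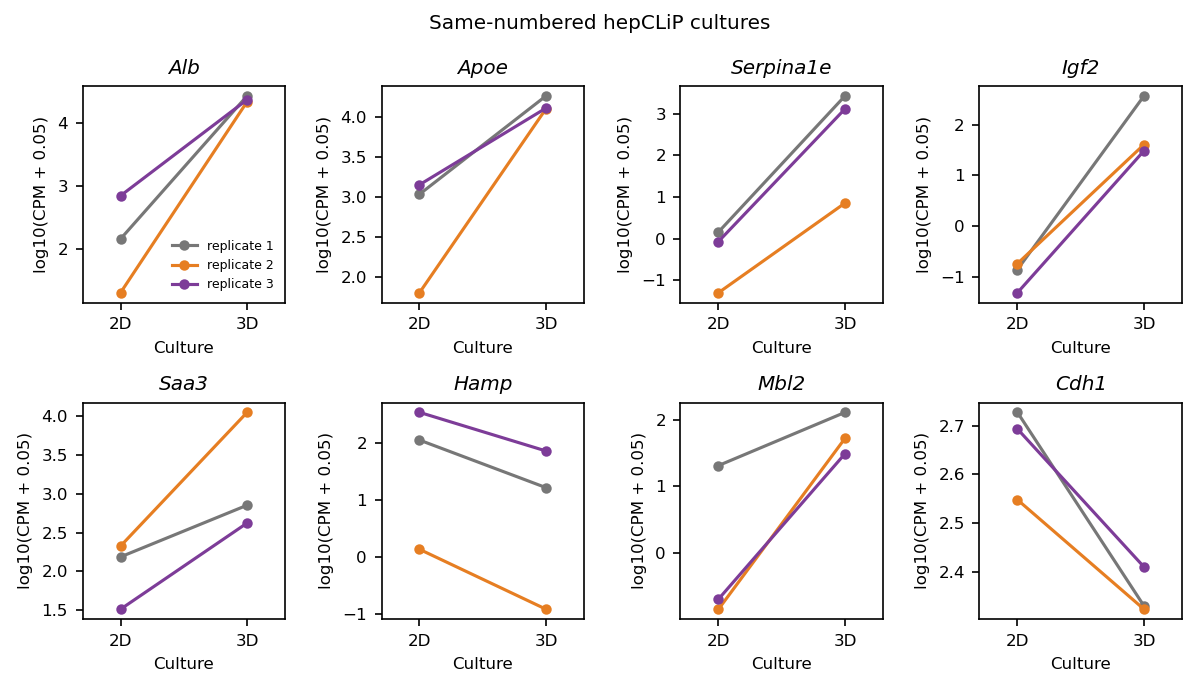
Level, as log10(CPM + 0.05), of 8 genes in 2D and 3D, with lines joining same-numbered hepCLiP cultures (replicate 1 grey, 2 orange and 3 purple). Alb and Apoe start at different levels in 2D and end close together, Hamp is lower in 3D in each pair, and Serpina1e, Igf2 and Saa3 are higher in 3D in each pair but reach different levels.

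Some called genes differed widely between replicates. Serpina1e, of the near-identical alpha-1-antitrypsin family, had 1.39, 0 and 0.799 CPM in 2D and 2675, 7.09 and 1306 CPM in 3D (log2 fold change 10.83 ± 2.09 SE, adjusted p = 0.00446). Replicate 2 stayed lower than the others by far, yet above its own 2D culture. Acpp, an acid phosphatase, had 0.0924, 2.23 and 0 CPM in 2D and 46.7, 332 and 1.597 CPM in 3D (log2 fold change 7.32 ± 1.81 SE, adjusted p = 0.00998), for which leaving out 2D replicate 2 gave 11.19, that library being the highest in 2D. Here 3D replicate 2 was the highest and 3D replicate 3 below 2D replicate 2, so that the cultures overlapped although each pair rose. Slc38a4, an imprinted amino acid transporter, had 10.8, 0.227 and 8.88 CPM in 2D and 219, 9.07 and 219.5 CPM in 3D (log2 fold change 4.49 ± 1.24 SE, adjusted p = 0.0169), with replicate 2 the lowest in both cultures, so that the cultures overlapped. G6pc, the last enzyme of glucose release, had 0.416, 0 and 7.94 CPM in 2D and 68.3, 53.6 and 80.4 CPM in 3D (log2 fold change 4.61 ± 1.14 SE, adjusted p = 0.00991), and without 2D replicate 3, the 2D library with the most, the log2 fold change was 8.30. In all, 5124 of the 5139 called genes had the same sign in all 3 pairs. With the replicate number as a block 6973 genes were called, of which 5090 were also called without it.

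The culture effect was set beside that of bilCLiP cells by a test of the difference between the effects. No gene was called (0.00% of those tested), while 532 had an unadjusted p under 0.05. DESeq2 called 16, edgeR with the RosaConfetti replicates of hepCLiP only called 3, and edgeR without hepCLiP 2D replicate 2 called 3. At this spread the test does not show that the effects are alike. For Serpina3n, the largest rise, the hepCLiP log2 fold change of 13.90 stood beside 15.10 in bilCLiP, a difference of -1.20 ± 0.85 SE (adjusted p = 1). For Sprr1a, the largest fall, -9.82 stood beside -9.73, a difference of -0.0827 ± 1.04 SE (adjusted p = 1). Neither difference was called.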

How the data were processed

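RNA was sequenced from 12 CLiP libraries, 3 per origin and culture. The authors deposited a table of raw read counts per gene symbol and a normalized table whose signal, from the values, is each count divided by 1 constant per library; the limma alternative used the latter. STAR 2.7.10b, GRCm39, featureCounts 2.0.1 and DESeq2 appear in the submitters' processing notes, which give no roles or order. Overlapping and antisense genes cannot be told apart, with annotation and strandedness not given in the sources used here. Groups were taken from titles.

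Genes were filtered with filterByExpr and tested with edgeR 4.0.16 (R 4.3.3; TMM factors, robust quasi-likelihood test, 4 group means over all 12 libraries), two-sided, with Benjamini-Hochberg adjustment over all genes tested and a threshold of 0.05. The standard error (SE) was derived from the F statistic. CPM used TMM effective library sizes. The depth of 17138049 to 18762152 counts per hepCLiP library leaves genes of a few counts imprecise, and for genes with at most 3 counts in a culture a count ratio or bound replaces the fold change. Ratios and intervals cover counting error only. Same-numbered cultures were treated as possible pairs because their deviations from the group means correlated at 0.47, 0.49 and 0.51, and the labels do not state where the pairing comes from. The alternatives included DESeq2 1.42.0, other scalings and filters, limma 3.58.1, the replicate number as a block and leaving out each library. The procedure was tested on simulated data with few changed genes, modest folds balanced in direction and no pairing of replicates. That test does not cover the large changes here or the dependence of the calls on the scaling.

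The gene lists and the choice of genes were made with earlier results of these data known. Genes were named by rule: the 12 largest non-overlapping rises and falls of at least 5 CPM, the 10 largest gains and losses in CPM, the hepatocyte and biliary markers, per list up to 6 called members with the largest changes and 2 uncalled ones with the highest CPM, the 8 most variable genes in 3D and the 6 largest uncalled changes. The text gives a selection of these, and some genes are not reported here. Ccnb1, F3, Jak1, Jak2, Jup, Osmr, Plaur, Socs3, Sprr1b, Stat3 and Thbd fall outside the rule and were chosen after their values were seen.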

Additional observations from a re-analysis of the deposited data

How the results depend on the processing

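The 5139 calls became 7915 with library totals alone and 1492 when tested against a 2-fold change. They became 3263 with the RosaConfetti hepCLiP replicates only, which leaves out replicate 2 of both cultures. With the replicate block there were 6973 calls over 12 samples and 5858 over the 6 hepCLiP samples. The 3142 calls of at least 2-fold became 4847 with library totals alone. The difference between origins, 0 genes by edgeR, was called for 16 genes by DESeq2, for 3 with the RosaConfetti replicates only and for 3 without hepCLiP 2D replicate 2. Leaving out each library in turn gave 4133 to 5227 calls, 2751 to 3236 of at least 2-fold, 0 to 3 differences between origins, and a rise of 14.5 to 17.0 percentage points in the share of the 10 most abundant genes. Of the 126 called genes named in the text 124 were called in all 12 of these fits, the exceptions being Dcn and Onecut1. Other settings ended more of these calls: 13 when tested against a 2-fold change and 5 with the RosaConfetti hepCLiP replicates only. Without the filter on low counts 3 were lost, and 1 each with library totals alone and with limma. The replicate block over 12 samples changed no call of a named gene other than the 13 given in the text. The replicate block over the 6 hepCLiP samples made 13 calls that the unblocked fit over 12 samples lacked, with Cfb and Tfrc in place of Gsta3 and Vcp-rs. It ended 1, that of Dcn. Against the same fit, the 6 hepCLiP samples without a block made 7 further calls and ended 2, so these 13 are not due to the block alone. Cebpb, not called, reversed with library totals alone, to a log2 fold change of -0.58 that was called. The cause of the changes above was not tested. With 3 libraries per culture and 1 combination of geometry, serum, cytokine and time, depth and replication limit what the genes near 0 can show.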
